A study of Mus musculus with 8 samples.

Results

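The 10 genes described here encode the building block of the actin filament and the proteins that handle it, namely the cytoplasmic actins Actb and Actg1, the monomer-sequestering thymosins Tmsb4x and Tmsb10, the filament-severing protein cofilin (Cfl1), profilin (Pfn1), and the Arp2/3 complex subunits Arpc1b, Arpc2, Arpc3 and Arpc5. They were chosen by name, and all 10 were found among the 3903 gene symbols of a deposited table of cluster markers. The cells were preadipocytes from inguinal white fat of C57BL/6 mice, either wild type (WT) or lacking HMGN1 and HMGN2 (Hmgn1-/- and Hmgn2-/-, double knockout, DKO). Single-cell RNA was profiled at day 0, before induction of browning, and at day 6 of a course that began with insulin, dexamethasone, IBMX, T3 and rosiglitazone and went on in maintenance medium with insulin and T3 alone, with 2 samples for each genotype and day and 8 in all. All were primary cells grown on collagen-coated plates, and the study describes its experiments as done with male mice.

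Actin exists as free monomers and as filaments, and cells set the balance between these forms with proteins that store, load, branch and dismantle. Thymosins hold monomers in reserve, profilin feeds them to growing filament ends, the Arp2/3 complex starts branches on the sides of existing filaments, and cofilin severs old filaments. Preadipocytes are spread, fibroblast-like cells with prominent actin bundles, and the cytoskeleton is known to be remodelled as they round up and store lipid.

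The table lists each gene in some or all of 12 clusters, numbered 0 to 11, in which the cells of all 8 samples are pooled. It therefore has no value for WT, DKO, day 0 or day 6, no replicate behind any value and no SD, and these comparisons were not made. Hmgn1 and Hmgn2, the deleted genes, could not be checked per sample. In the 5 clusters that list Hmgn1 (2, 4, 5, 6 and 9), pooled detection was 92.0%, 26.1%, 98.6%, 98.7% and 98.6%, in that order. Hmgn2 had a single entry, for cluster 6, at 48.3% against 22.9% of all other cells. The quantity used throughout is detection, the percent of cells in which at least 1 transcript of the gene was counted, given for the cells of a cluster and for all other cells. Each deposited fraction is rounded, so that a printed percent is exact to 0.05 percentage points. The number of cells and the depth per cluster are unknown, so no counting interval is given. A gene has an entry in a cluster only where it passed the authors' minimum fold change and minimum detection, so a missing entry is not a level of 0. The clusters were formed from the same cells and genes, and a difference between a cluster and the rest is a description, not a test.

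The clusters differed in their marker genes. The gene with the largest excess of detection was Myl9 in cluster 0 (89.0% against 39.2% of all other cells), Abi3bp in cluster 1 (90.3% against 32.1%), A2m in cluster 2 (82.4% against 15.8%), Mmp11 in cluster 3 (75.6% against 33.6%) and Agt in cluster 7 (77.5% against 25.7%). Cell-cycle genes took this place in cluster 5 (Pclaf, 92.0% against 17.3%), cluster 6 (Mki67, 92.0% against 17.4%) and cluster 9 (Cenpa, 95.7% against 12.7%). The fatty acid transporter gene Cd36 led cluster 4 (69.0% against 25.3%) and cluster 8 (87.7% against 25.8%), and Gpat3, an enzyme gene of triglyceride synthesis, led cluster 11 (93.0% against 5.0%). Of the preadipocyte markers 6 of 7 were listed, all but Cd34, and of the adipocyte markers 7 of 7. Of the thermogenic markers 2 of 4 were listed, each for cluster 11 only. These were Ppargc1a (47.5% against 1.8% of all other cells) and Elovl3 (36.7% against 2.8%), whereas Ucp1 and Cidea had no entry. The immune, endothelial and glial markers had 0 of 4 listed each.

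**Figure D1:**
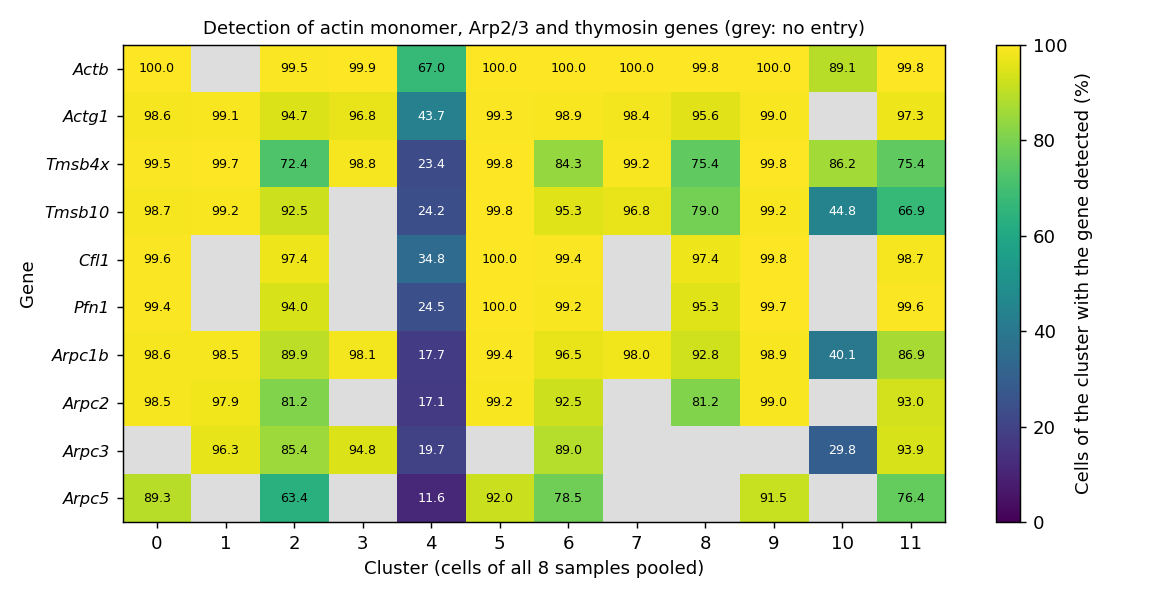
Percent of the cells of each cluster (x axis) in which each of the 10 genes (y axis) was detected, by colour and printed value, with grey where the table has no entry. The column of cluster 4 is low for every gene, from 11.6% to 67.0%, and the row of Tmsb4x is lower in clusters 2, 6, 8 and 11 than that of Actb.

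The 10 genes had 96 entries, from 7 clusters for Arpc3 and Arpc5 to all 12 for Tmsb4x and Arpc1b. Detection was lower in the cluster than in all other cells by at least 10 percentage points in 17 entries and higher by as much in 33. Over all 13337 entries of the table, 37.4% were lower and 40.0% were higher by that amount. The remaining 46 entries differed by less. Of the 17 lower entries, 10 lay in cluster 4 and 3 in cluster 10, and the other 4 were those of the thymosins in clusters 2, 8 and 11. Without clusters 4 and 10 the 17 lower entries became 4.

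Upstream sequence is shown for Tmsb4x, low in clusters 2, 8 and 11 but not in cluster 10, and for Arpc1b, among the lowest in cluster 4, with the actin gene Actg1 for comparison. The sequences are the 120 bases before the RefSeq transcription start (GRCm38.p6), written 5′ to 3′ on the strand of the gene. In the GENCODE annotation used for the gene positions, each gene starts within its printed stretch, at 120348542 for Actg1, 167209315 for Tmsb4x and 145114215 for Arpc1b. Part of each stretch therefore lies inside the gene in that annotation, and positions relative to the start hold for RefSeq only. Capitals mark a CArG box, the site of serum response factor, which regulates actin genes, and the GC box GGGCGG, both searched on both strands.

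Actg1, chr11:120348496-120348615, minus strand: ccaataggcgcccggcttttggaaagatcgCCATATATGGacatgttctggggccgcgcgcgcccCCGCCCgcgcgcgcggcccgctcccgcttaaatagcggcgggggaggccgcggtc

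Tmsb4x, chrX:167209219-167209338, minus strand: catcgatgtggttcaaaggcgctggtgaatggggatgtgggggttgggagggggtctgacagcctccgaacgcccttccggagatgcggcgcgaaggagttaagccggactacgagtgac

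Arpc1b, chr5:145114136-145114255, plus strand: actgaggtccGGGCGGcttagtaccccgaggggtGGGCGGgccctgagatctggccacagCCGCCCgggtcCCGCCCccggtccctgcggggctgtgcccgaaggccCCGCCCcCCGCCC

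Promoter windows of 300 bases, 250 before and 50 after the start, were matched for 9 of the 10 genes, with 11 windows in all, 3 of these for Tmsb10 and none for Actb. A CArG box occurred in 1 of the 11, that of Actg1, where its first base lies at -90, and in 1.63% of all 32851 windows. The motif GGGCGG occurred in all 11 windows and in 35.7% of all windows, and TATAAA, which a CArG box can contain, in 0 of 11 and in 13.6%. The stretch printed for Arpc1b holds 6 GC boxes, that for Actg1 holds 1 and that for Tmsb4x holds 0. A match describes these letters only, and the table has no measurement of binding or chromatin at these promoters.

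The actins were the most widely detected. Actb (chromosome 5, 142903115 to 142906754, minus strand, mm10), which encodes beta-actin, was detected in 96.4% of all cells. In 9 of its 11 clusters with an entry it was detected in 99.5% to 100% of the cells. The exceptions were cluster 4, at 67.0% against 99.5% of all other cells, and cluster 10, at 89.1% against 96.6%. For cluster 1, which has no entry, detection solved from the remaining clusters was 100% (99.7% to 100% over the ways of solving it). Actg1 (chromosome 11, 120345690 to 120348542, minus strand) encodes gamma-actin, whose protein is nearly identical to beta-actin. It was detected in 91.6% of all cells. Clusters 2, 8 and 11 had 94.7%, 95.6% and 97.3%, and clusters 0, 1, 3, 5, 6, 7 and 9 had values between 96.8% and 99.3%. In cluster 4 it was at 43.7% against 96.7%. Cluster 10 has no entry for Actg1, and the value solved for it was 67.1% (65.5% to 68.9%), so both low clusters of Actb were also the low clusters of Actg1. How reads that match both actin transcripts were counted is not given in the sources used here.

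Cofilin and profilin, which turn filaments over, followed the actins. Cfl1 (chromosome 19, 5490455 to 5495201, plus strand) was detected in 91.1% of all cells. Detection reached 99.6%, 97.4%, 100%, 99.4%, 97.4%, 99.8% and 98.7% in clusters 0, 2, 5, 6, 8, 9 and 11 respectively, but 34.8% in cluster 4. Pfn1 (chromosome 11, 70651850 to 70654644, minus strand) was detected in 89.6% of all cells. The same 7 clusters had 99.4%, 94.0%, 100%, 99.2%, 95.3%, 99.7% and 99.6%, and cluster 4 had 24.5%. Cluster 4 was thus the only low cluster among the 8 listed for either gene. In clusters 1, 3, 7 and 10, where neither has an entry, the mean detection solved for these clusters together was 94.0% for Cfl1 and 94.3% for Pfn1, and which of these clusters carried the shortfall from 100% cannot be read from the table.

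The thymosins stood apart from the actins they bind. Tmsb4x (chromosome X, 167207093 to 167209315, minus strand) encodes thymosin beta 4. It was detected in 85.5% of all cells, and clusters 0, 1, 3, 5, 7 and 9 had 99.5%, 99.7%, 98.8%, 99.8%, 99.2% and 99.8% in that order. Detection was below that of all other cells in 5 clusters, with 72.4%, 23.4%, 84.3%, 75.4% and 75.4% for clusters 2, 4, 6, 8 and 11. These 5 were the 5 clusters in which the adipocyte marker Fabp4 was detected in at least 98% of the cells, a bound set after the values were seen. Among the remaining 7 clusters Tmsb4x lay between 86.2% and 99.8%. Among clusters with an entry, the split was not particular to Tmsb4x. Arpc2 was at most 93.0% in the same 5 clusters and at least 97.9% in the 4 others listing it. Its mean solved for clusters 3, 7 and 10, which have no entry, was 85.5%, so these did not all lie on the high side. Arpc5 was at most 78.5% in the 4 of the 5 that list it and at least 89.3% in the 3 others listing it. The mean solved for clusters 1, 3, 7, 8 and 10, without an entry for Arpc5, was 69.3%. Whether the split of Arpc5 extends to these clusters cannot be read from that mean. The separation was one of these pooled clusters and has no replicate, and cluster 7, with Fabp4 at 92.6% and Tmsb4x at 99.2%, fell on the high side.

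Against genes with similar detection in all other cells, the low detection of Tmsb4x was marked in cluster 2. There, 68 of the 68 other listed genes whose detection elsewhere lay within 2 percentage points of its own were detected in more cells, with a median of 92.0%. In cluster 8 this held for 56 of 58 genes, with a median of 89.0%, and in cluster 11 for 71 of 80, with a median of 96.2%. Among all entries, 34.5% were lower by at least 10 percentage points in cluster 2, 45.6% in cluster 8 and 28.7% in cluster 11, and of the 10 genes described here 1 was lower by that amount in cluster 2 (Tmsb4x), 1 in cluster 8 (Tmsb4x) and 2 in cluster 11 (both thymosins). Actb in the same clusters was 27.1, 24.4 and 24.4 percentage points above Tmsb4x.

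Tmsb10 (chromosome 6, 72957347 to 72958748, minus strand) encodes thymosin beta 10, a close relative of thymosin beta 4. Detection over all cells was 87.1%. It was high in clusters 0 (98.7%), 1 (99.2%), 5 (99.8%), 6 (95.3%), 7 (96.8%) and 9 (99.2%), and 97.7% was solved for cluster 3, which has no entry. Unlike Tmsb4x it was detected in 92.5% of cluster 2 against 86.4% of all other cells, where Tmsb4x was at 72.4%. In cluster 8 the 2 genes were at 79.0% and 75.4%, and in cluster 11 Tmsb10 was the lower one, at 66.9% against 75.4%. Among genes detected as widely elsewhere, 54 of 56 were above Tmsb10 in cluster 8 and 58 of 62 in cluster 11, where their median was 97.6%. The thymosins therefore shared the low values of clusters 8 and 11 and parted in cluster 2. They also differed in cluster 6, with Tmsb4x at 84.3% and Tmsb10 at 95.3%.

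**Figure D2:**
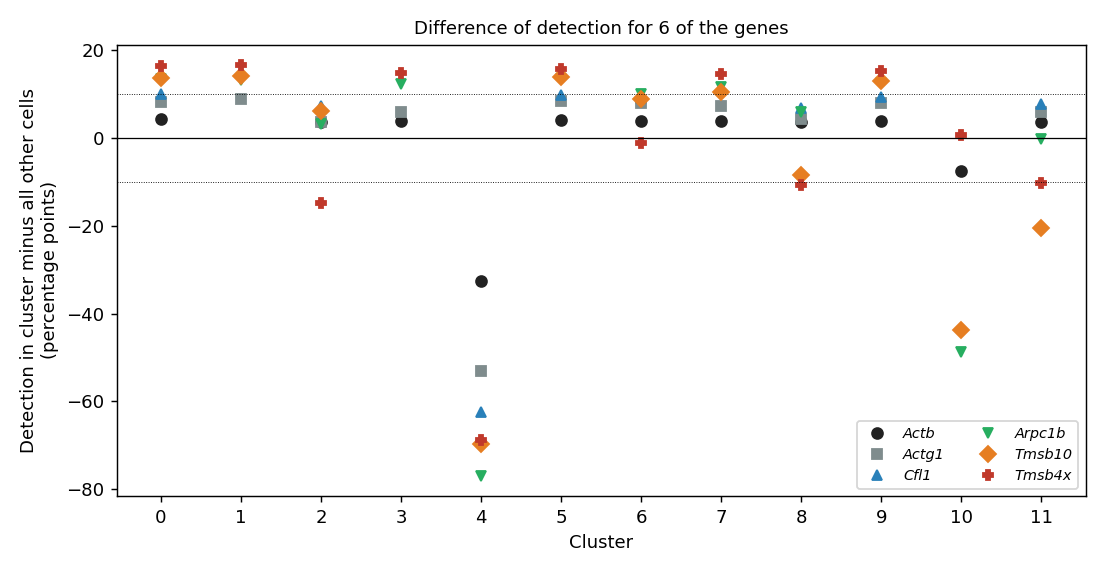
Detection in the cluster minus detection in all other cells, in percentage points (y axis), for 6 of the genes in each cluster with an entry (x axis), with dotted lines at 10 points either side of 0. In cluster 2 Tmsb4x sits at -14.9 and Tmsb10 at 6.1, in cluster 11 Tmsb10 sits at -20.5, and in cluster 10 Tmsb4x alone is above 0, at 0.7.

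The Arp2/3 subunits form the complex that nucleates branches. Arpc1b (chromosome 5, 145114215 to 145130705, plus strand) was detected in 87.2% of all cells, Arpc2 (chromosome 1, 74236084 to 74268209, plus strand) in 84.4%, Arpc3 (chromosome 5, 122391878 to 122414184, plus strand) in 83.8% and Arpc5 (chromosome 1, 152766542 to 152775597, plus strand) in 70.0%. Arpc1b reached 98.6%, 98.5%, 98.1%, 99.4%, 98.0% and 98.9% in clusters 0, 1, 3, 5, 7 and 9. It was lower in clusters 2, 6, 8 and 11, at 89.9%, 96.5%, 92.8% and 86.9%. For cluster 11 this was level with the 87.2% of all other cells, while 56 of 64 genes as widely detected elsewhere were above it.

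Arpc2 reached 98.5%, 97.9%, 99.2% and 99.0% in clusters 0, 1, 5 and 9, and 81.2% in both cluster 2 and cluster 8. In cluster 11 it was at 93.0% against 84.3% elsewhere, and in cluster 6 at 92.5% against 83.7%. Arpc3 was at 96.3% and 94.8% in clusters 1 and 3, and at 85.4%, 89.0% and 93.9% in clusters 2, 6 and 11. Arpc5 was the least detected subunit. Clusters 0, 5 and 9 had 89.3%, 92.0% and 91.5%, whereas clusters 2, 6 and 11 had 63.4%, 78.5% and 76.4%. Each listed subunit was thus lower in cluster 2 than in clusters 0, 1, 3, 5 and 9 wherever it had an entry there.

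In clusters 0, 1, 3, 5, 7 and 9 every listed gene of the group was detected in more cells than elsewhere, as were most entries of these clusters. Higher by any amount were 543 of 694 entries in cluster 0, 530 of 729 in cluster 1 and 286 of 427 in cluster 3. The counts were 908 of 1057 in cluster 5, 1057 of 1416 in cluster 6, 452 of 540 in cluster 7 and 869 of 938 in cluster 9. In cluster 0, 9 of the 10 genes were listed, and 6 were higher by at least 10 percentage points, beside 66.0% of all entries of that cluster. In the cell-cycle clusters 5 and 9, again 9 genes each were listed, all higher, 6 by at least 10 points in each, beside 72.1% and 76.9% of all entries. The lowest value in those 2 clusters was 91.5%, for Arpc5. In cluster 1 all 6 listed genes were higher, 5 by at least 10 points, beside 58.8% of entries. In cluster 3 the 5 listed genes were higher, 3 of them by that amount (48.7% of entries), and in cluster 7 likewise 5 and 3 (59.8%). In cluster 6, where the cell cycle gene Mki67 leads and Fabp4 detection was 99.9%, 9 of 10 genes were higher but only 2 by at least 10 points (Pfn1 and Arpc1b), beside 51.9% of entries, and Tmsb4x was 1.3 points lower. In cluster 11, 2 genes were higher by that amount (Pfn1 and Arpc3), beside 44.4% of entries. Genes already detected in most other cells cannot gain many points.

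**Figure D3:**
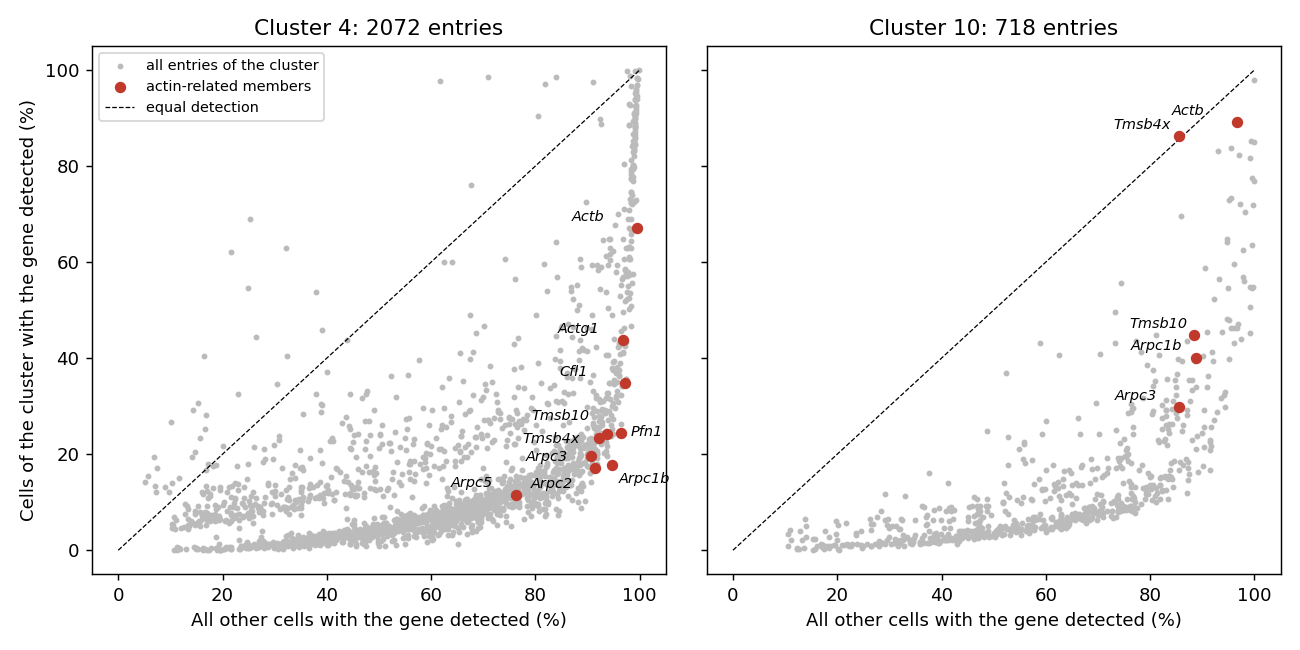
Detection in the cluster (y axis, percent) against detection in all other cells (x axis, percent) for every entry of cluster 4 (left) and cluster 10 (right), in grey, with the actin-related genes in red and a dashed line of equal detection. In cluster 10 Tmsb4x is the one entry above the line, at 86.2% against 85.5%, and in cluster 4 all 10 genes lie far below it.

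In cluster 4, which held 9.59% of the cells, all 10 genes were lower by at least 10 percentage points, as were 92.8% of all its entries. The median difference was -69.2 points for the 10 genes and -47.2 for all entries. Of its 2072 entries, 2028 were lower by any amount, so low detection was a property of nearly every listed gene there and its part in the values of the actin genes was not tested. The order within the cluster was Actb (67.0%), Actg1 (43.7%), Cfl1 (34.8%), Pfn1 (24.5%), Tmsb10 (24.2%), Tmsb4x (23.4%), Arpc3 (19.7%), Arpc1b (17.7%), Arpc2 (17.1%) and Arpc5 (11.6%). Pfn1, Tmsb10 and Tmsb4x were within 1.1 points of each other. Several genes were low also when set beside genes detected as widely elsewhere. All 92 such genes were above Arpc1b, with a median of 33.0%, 109 of 111 were above Pfn1, with a median of 53.0%, and 137 of 147 were above Cfl1, with a median of 68.9%. Actb was also below most of its peers, with 90 of 113 above it and a median of 84.1%. Most peers were likewise above Actg1 (76 of 115, median 57.0%), Tmsb10 (79 of 98, 30.8%) and Arpc2 (93 of 99, 24.4%). Closer in percentage points to the median of their peers were Tmsb4x (63 of 102 above it, median 25.6%), Arpc3 (85 of 108, 22.8%) and Arpc5 (80 of 102, 13.4%). For these genes too, most peers were above. The adipocyte genes Fabp4 and Scd1, the latter an enzyme of fatty acid desaturation, were at 98.5% and 97.7% in this cluster. All other cells had 71.0% and 61.7%. The other adipocyte markers were mixed. Adipoq (40.5% against 16.4%), Plin1 (29.3% against 14.3%) and Cidec (15.5% against 5.7%) were higher, whereas Lpl (88.7% against 92.5%) and Pparg (11.7% against 16.3%) were lower.

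Cluster 10, with 3.23% of the cells, was also one of low detection, and there the group split. Of its 718 entries, 98.5% were lower by at least 10 percentage points, and 1 entry, 0.139%, was higher by any amount. That entry was Tmsb4x, at 86.2% against 85.5% of all other cells. The difference of 0.7 points is larger than the rounding but small, and among the listed genes Tmsb4x was the one that was not lower. Of the 40 other listed genes detected as widely elsewhere, 0 reached it, with a median of 25.5% and a highest value of 69.6%. Genes that differed too little from other cells to be listed are not among these peers, here or in the other clusters. Actb, at 89.1% against 96.6%, stood above all 22 of its peers, whose median was 56.5% and highest value 83.7%. Tmsb10 (44.8% against 88.5%) was above all 26 of its peers, though far below Tmsb4x. Arpc1b (40.1% against 88.8%) and Arpc3 (29.8% against 85.6%) were closer to the rest, with 23 of 27 and 28 of 39 peers at or below them. Of the 5 genes listed there, 3 were lower by at least 10 points. In this cluster Fabp4 was at 19.7% and Plin1, a lipid droplet coat gene, at 0.9%.

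Between clusters 4 and 10, 5 of the 10 genes could be set side by side. Tmsb4x differed most, with 23.4% in cluster 4 and 86.2% in cluster 10, followed by Arpc1b with 17.7% and 40.1%, Actb with 67.0% and 89.1%, Tmsb10 with 24.2% and 44.8%, and Arpc3 with 19.7% and 29.8%. The thymosins were 0.8 points apart in cluster 4 and 41.4 points apart in cluster 10. The transcripts per cell in either cluster are not in the table, and their part in these values was not tested. Free RNA in the droplets gives some detection in cells that do not express a gene, and no cluster lacks actin as a background. For Plin1, detection in clusters 0, 1, 3, 5 and 10 was between 0.6% and 1.9%. For the adipocyte genes Fabp4 and Scd1 it was 19.7% to 59.9% and 13.6% to 52.0% in the same clusters. The part of free RNA in any of these values was not tested.

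Other genes of actin handling were read from 7 lists covering 52 genes, of which 34 had an entry in at least 1 cluster, with 150 entries in all. Detection was lower by at least 10 points in 54 entries and higher by as much in 58, counts near the 37.4% and 40.0% of all entries of the table. All 25 listed genes were lower in cluster 4, beside 92.8% of all entries there, and all 8 in cluster 10, beside 98.5%, so without these 2 clusters 21 lower entries were left. In clusters 0, 5 and 9 the counts of higher genes were 15 of 16, 13 of 14 and 14 of 15, beside 66.0%, 72.1% and 76.9% of all entries. The largest differences were in cluster 4. They were those of the small GTPase genes Rhoc (7.6% against 82.1%), Rac1 (17.8% against 86.2%) and Rhoa (25.3% against 91.6%), of Arhgdia (13.5% against 86.4%), of the capping protein genes Capzb (13.6% against 86.4%) and Capza2 (15.3% against 82.7%), of Brk1 (15.6% against 86.0%), a subunit of the complex that activates Arp2/3, of the depolymerizing factor gene Dstn (15.0% against 85.4%) and of Actr3 (13.7% against 82.0%), which encodes the Arp3 subunit. Gsn, which encodes the severing and capping protein gelsolin, completed the 10 with its value in cluster 10, 23.0% against 88.0%.

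**Figure D4:**
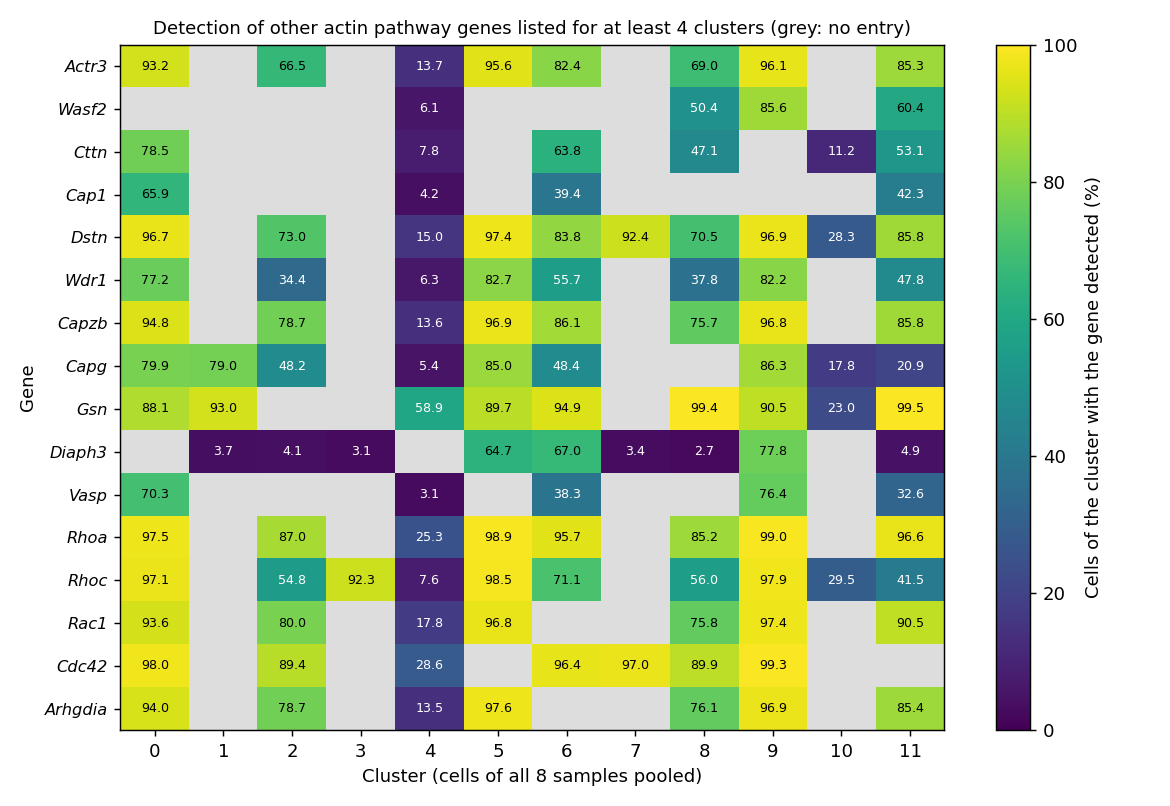
Percent of the cells of each cluster (x axis) with detection of the other actin pathway genes that had at least 4 entries (y axis), by colour and printed value, with grey for no entry. Rhoc drops to 54.8%, 56.0% and 41.5% in clusters 2, 8 and 11, Gsn stays at 99.4% and 99.5% in clusters 8 and 11, and Diaph3 is at 64.7% to 77.8% in clusters 5, 6 and 9.

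In clusters 2, 8 and 11, in which Tmsb4x was low, these genes did not move as 1 group. Rhoc was lower in each of the 3, at 54.8% against 77.8%, 56.0% against 76.2% and 41.5% against 75.5%, respectively. The following genes, except Gsn, were chosen after their values were seen. Capg, a capping protein gene, was at 20.9% against 60.6% in cluster 11, and Wdr1, a cofactor of cofilin, at 34.4% against 55.0% in cluster 2 and 37.8% against 53.4% in cluster 8. The largest excess in clusters 2 and 8 was that of Limk1, a kinase gene whose product inactivates cofilin, at 41.0% against 16.3% and 49.4% against 17.4%. Gsn was higher too, at 99.4% against 85.1% in cluster 8 and 99.5% against 85.7% in cluster 11, and Arpc5l, which encodes a close relative of the Arpc5 subunit, was at 92.1% against 61.8% in cluster 11. Counting all lists in cluster 2, 6 of 14 entries were lower by at least 10 points and 1 was higher, beside 34.5% and 24.6% of all entries. In cluster 8 the counts were 5 and 2 of 15, beside 45.6% and 26.2%, and in cluster 11 they were 6 and 6 of 21, beside 28.7% and 44.4%. Diaph3, a formin gene, followed the cell-cycle clusters instead, with 64.7%, 67.0% and 77.8% in clusters 5, 6 and 9. The 6 remaining clusters that list it had 2.7% to 4.9%. Of the genes for actin-sensing transcription 1 of 5 was listed, Mrtfa, at 2.1% against 13.2% in cluster 10.

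Within the group, the detection profiles of Cfl1 and Pfn1 were the closest, differing by 2.15 percentage points on average over 8 shared clusters, and those of Cfl1 and Actg1 by 2.23 over 8. Tmsb4x and Tmsb10 differed by 8.15 over 11 clusters. Outside the group, Tmsb4x had no near neighbour. Its closest 3 genes, Psmb2, Atp6v1g1 and Kdelr2, were 3.54, 3.71 and 3.85 points away. For Tmsb10 the closest were Hmgn1 (1.52 points over 5 clusters), Ywhae (1.60) and Fkbp1a (1.63). Arpc1b was closest to Itgb1 (1.34 over 9), Pdia6 (1.46) and Smarca5 (1.65), Arpc2 to Snrpb (0.98 over 5), Ppp1r14b (1.43) and Anxa2 (1.44), Arpc3 to Dynlrb1 (1.06 over 7), Txndc17 (1.5) and Spcs1 (1.78), and Arpc5 to Fis1 (0.775 over 4), 1810037I17Rik (0.860) and Fermt2 (1.30). Detection cannot exceed 100%, which brings genes detected in nearly all cells close together. Actb was close to Hspa8 (0.1) and Tpt1 (0.117), neither compared with it in cluster 4. Actg1 was closest to Eif2s2 (0.529), Calr (0.550) and Npc2 (1.13), Cfl1 to Hint1 (0.475), Ppib (0.620) and Gabarap (0.867), and Pfn1 to Hnrnpa1 (0.650), Rbm3 (1.03) and Set (1.18). The pairs with Eif2s2, Calr, Ppib, Gabarap, Rbm3 and Set include cluster 4, where Actg1, Cfl1 and Pfn1 were at 43.7%, 34.8% and 24.5%. The part of the upper bound in these distances was not tested. The clusters compared differ from pair to pair, since both genes need an entry.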

How the data were processed

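Single-cell RNA was captured in 8 samples, 2 per genotype and day. The submitters' processing notes name Cell Ranger 6.0.0 and mm10, and per the study's methods the authors aggregated the captures at equalized read depth, excluded low-gene and mitochondria-rich cells as well as immune, glial and endothelial cells, clustered the rest in Seurat, and compared each cluster with all other cells (MAST). Removal of doublets is not described there, and doublets were not looked for, since the table holds no single cells. The deposited values used are 2 fractions per entry, namely the share of cells of the cluster, and of all cells outside it, in which the gene was counted. The table also holds the authors' log2 fold changes, p-values and adjusted p-values, which were not used. No column of values per sample was left unused (0).

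Python 3.11.15 with numpy 2.4.6, pandas 2.3.3 and matplotlib 3.10.9 was used. Differences of detection were counted at 10 percentage points. Cluster shares were solved by least squares from the 10 genes listed for all 12 clusters, 2 of which (Tmsb4x and Arpc1b) are described here, since a gene's detection over all cells must be equal from each cluster. Over 2687 genes listed for at least 2 clusters, these values differed by at most 0.125 percentage points within a gene. The shares summed to 99.9%. With the shares, detection over all cells and over clusters without an entry was solved. The solving step was tested on simulated data. Entries with detection elsewhere within 2 points of a gene served as its peers, which was chosen after the data were seen. Similar genes were ranked by the mean absolute difference of detection over at least 4 shared clusters. The genes named are the 10 described, the 10 pathway genes with the largest difference in any cluster, the 3 nearest genes of each (for Actb, one is not reported here), the leading gene of each cluster, and Hmgn1 and Hmgn2. Markers (Fabp4, Plin1, Scd1, Adipoq, Cidec, Lpl, Pparg, Ppargc1a, Elovl3, Ucp1, Cidea and Cd34) were named besides, as was Mrtfa, the sole listed gene of its list. Capg, Wdr1, Arpc5l, Limk1 and Diaph3 were chosen after their values were seen. In 35 entries, 7 symbols read as dates, and these were only counted among all entries. The genes and lists were chosen with earlier results of these data known. No test was made, since no value has a replicate, and depth per sample is unknown. Positions are from GENCODE M21 (mm10) and promoter sequences from RefSeq.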

Additional observations from a re-analysis of the deposited data

How the results depend on the processing

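No paired analysis was possible because samples are pooled within each cluster, and nothing was tested. Leaving out a replicate was not possible for the same reason. Of the 17 entries with detection lower by at least 10 percentage points, 4 were left without clusters 4 and 10, which hold the other entries by construction. The minimum moved the 33 higher entries most, to 58 at 5 points and 3 at 20 points, and a detection odds ratio of at least 2 gave 62, because an odds ratio is not bounded near 100% detection. The lower entries numbered 20, 14 and 17 under the same 3 settings. The 54 lower entries of the pathway lists became 21 without clusters 4 and 10, a setting added after the data were seen. Detection over all cells moved by at most 0.1 percentage points under 60 recomputed values, and that of clusters without an entry by at most 0.5 under 16, including shares solved without Tmsb4x and Arpc1b, added after the data were seen. Cell numbers and depth behind the fractions are unknown, so their effect was not measured.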
